A study of Mus musculus with 18 samples.

Results

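The 6 RNA-seq libraries described here followed duodenal crypts of Mtgr1-/- (null) mice into culture. In 3 of them the RNA came from freshly isolated crypts, and in the other 3 from day 1 enteroids, the closed 3D epithelial structures that crypts form in Matrigel, collected 24 h after plating. They were chosen by genotype and stage from the sample labels and are 6 of the 18 libraries of the series. The same 3 mice gave both stages, so that each crypt library has a day 1 partner, and all 6 libraries carry the same deletion. Mtgr1+/+ (WT) crypts and day 1 enteroids from 3 further mice, 6 libraries, served as the comparison. All mice were age-matched littermates of 8 to 12 weeks, of both sexes. The deletion is germline, so that lymphocytes and stromal cells carried along with the crypts bear it as well, and no sort separated the cells. The enteroids grew in medium with EGF, Noggin and R-spondin, which the freshly isolated crypts had not met, so plating, medium and time in culture cannot be told apart in any change given here.

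The crypt is the proliferating pocket of the intestinal epithelium. Wnt signals hold Lgr5-positive stem cells at its base, and their progeny mature into absorptive enterocytes or into secretory goblet, Paneth, enteroendocrine and tuft cells. After damage the epithelium can pass through a regenerative state marked by Clu, Anxa1, Ly6a and targets of the co-activator YAP, and freshly plated crypts are known to enter a similar state. MTGR1, the product of Cbfa2t2, is a corepressor of the MTG family that binds transcription factors and recruits histone deacetylases.

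Reads were recovered from the deposited values and the 6 libraries were scaled together, and the resulting values are called normalized reads here. The libraries held 25010335 to 28619017 reads over 16414 genes. The change of a gene is its mean difference in log2(normalized reads + 1), day 1 minus crypt of the same mouse, which understates the change of genes with few reads. Values after ± are standard errors (SE) of that change. A gene is said to have risen or fallen where its adjusted p was below 0.05 in limma with the mouse as a block, over all genes with a mean of at least 10 normalized reads. Members of a gene list below that mean, or not in all the deposited tables, were not tested. On the first principal component, which held 66.8% of the variance, the 3 crypt libraries stood apart from the 3 day 1 libraries. The targeted gene, Cbfa2t2 (chr2:154436481-154539356, plus strand, GRCm38), was at 719.8, 479 and 554 normalized reads in the crypts and 1079, 959 and 737 in the day 1 enteroids and rose, with a change of 0.66 ± 0.13 (SE, adjusted p = 0.015). On a scale common to 12 libraries it was at 734, 488 and 565 in null and 648, 555 and 619.8 in WT crypts, so the gene-level reads do not separate the genotypes and give no check of the labels. The name null stands for the label Mtgr1-/- throughout. Its paralog Cbfa2t3, with fewer reads, changed by 1.84 ± 0.33 (SE, adjusted p = 0.0109). The third family gene, Runx1t1, was too low to test. Among 20 genes of the MTG family and its partners, 2 rose and 6 fell (median change -0.11). On the deposited scale, explained below, the counts were 5 and 5 and the median was 0.026. When mouse 1 was left out, the call was lost for Cbfa2t2 (adjusted p = 0.0603).

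The labelled tissue was visible in its markers, and markers of other cells were detected as well. Krt8, an epithelial keratin, was at 65029, 76418 and 82969 normalized reads in the crypts and 112043, 99019 and 140544 in the day 1 enteroids. The summed level of 12 epithelial markers (4 rose and 1 fell, or 3 and 4 under quantile normalization) ran from 379370 to 452670 in crypts and from 426530 to 557480 at day 1. All 11 tested T cell and intraepithelial lymphocyte markers fell, with a median change of -3.92. The summed level of the joined markers of that list was 1658, 776 and 3565 in the crypts of mice 1, 2 and 3 and 32.5, 36.1 and 672 at day 1, so the day 1 library of mouse 3 kept more of it than the other two. Both tested B and plasma cell markers fell as well, and the sum over the joined ones went from 128, 363 and 703 to 5.42, 17.1 and 74.2. Cd3g and Nkg7 had no read in the day 1 library of mouse 1. Of 12 myeloid markers 1 rose and 6 fell, with sums of 3169, 1399 and 2645 in the crypts and 1683, 996 and 1959.6 at day 1. Of 4 endothelial markers 0 rose and 2 fell, and of 4 stromal markers 0 rose and 0 fell. Neither of the 2 neuron and glia markers tested was called, and the 1 muscle marker tested, Mylk, fell. No erythrocyte marker was in all the tables. In bulk RNA, fewer cells of a type and less RNA per cell cannot be told apart, and this holds for every cell type named below.

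The first day in culture moved a large share of the transcriptome. Of 12537 genes tested, 4893 were called (39%), 2444 higher (19.5%) and 2449 lower (19.5%). Every call had the same direction in 3 of 3 mice, and 786 of the rises and 936 of the falls were at least 2-fold. In 5443 genes (43.4%) the 3 crypt and the 3 day 1 values did not overlap. The median change over all genes tested was -0.039, with quartiles at -0.35 and 0.26 and a median SE of 0.11. The split between rises and falls depended on scaling. The authors scaled each stage in its own table, and on that deposited scale the median was 0.0995, with 3535 genes called higher and 1633 lower, so that 68.4% of the calls were higher. The shares of 19.5% in each direction are the background against which the counts of gene groups are given. Counts on another scale stand against the totals of that scale, which were 3535 and 1633 of 12544 on the deposited scale. Under quantile normalization they were 2106 higher and 2432 lower of 12537.

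The largest rises, among genes deposited for every stage and with a mean of at least 50, belonged to several unrelated families. Genes missing from a stage were not ranked, and some of them are given at the end. Prl2c3 (chr13:12790816-12800079), a prolactin-family gene best known from the placenta, went from 11.7, 34.2 and 6.33 normalized reads in the crypts to 26489, 21939.7 and 42274 at day 1, a change of 10.94 ± 0.57 (SE, adjusted p = 0.000433). Prl2c2 changed by 10.40 ± 0.42 (SE, adjusted p = 0.000247) and Prl2c5 by 9.09 ± 0.28 (SE, adjusted p = 0.000133). These paralogs are near-identical, so the split of reads between them is uncertain. Cyp2c29, a cytochrome P450 of drug and fatty acid metabolism, went from 28.2, 43 and 46.4 to 54240, 26756 and 40862, a change of 9.95 ± 0.30 (SE, adjusted p = 0.000128). Msln, which encodes the cell surface protein mesothelin, changed by 9.29 ± 0.18 (SE, adjusted p = 6.16e-05). The other rises in this group were Anxa10 (7.88), Slc7a11 (7.79), Serpinb9b (8.48), Anxa1 (7.04) and Scd1 (6.95).

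The largest falls, taken in the same way, included lymphocyte genes. Gzma and Gzmb, granzymes of cytotoxic lymphocytes, changed by -6.45 ± 0.56 (SE, adjusted p = 0.00131) and -6.00 ± 0.43 (SE, adjusted p = 0.000803), and Jchain of plasma cells by -4.97 ± 0.60 (SE, adjusted p = 0.00349). The summed T cell markers fell beside them, as given above. The epithelial stem cell gene Olfm4 (-4.90), the galactosyltransferase gene B3galt5 (-6.16, from crypt values of 305, 9094 and 1718), the tubulin ligase-like gene Ttll2 (-6.12), Cpn2 (-5.79) and the epithelial kinase gene Ptk6 (-4.78) completed the group with Pla2g4c and Eno1b. Pla2g4c, a phospholipase A2 gene, was uneven between mice, at 18918, 298 and 2219 in the crypts and 112, 45.1 and 19.6 at day 1. Eno1b (-5.33) is a near copy of Eno1, so its reads are uncertain, and its call was lost in edgeR (adjusted p = 0.0567). Leaving out mouse 2 ended the call of Eno1b (adjusted p = 0.12). With mouse 3 left out, Eno1b (adjusted p = 0.0501) no longer passed.

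Genes of crypt base stem cells fell within the day. Lgr5, the R-spondin receptor gene that marks these cells (chr10:115450311-115587780, minus strand), was at 401, 578 and 219 normalized reads in the crypts and 71.6, 92.9 and 54.6 in the day 1 enteroids. The change was -2.36 ± 0.18 (SE, adjusted p = 0.000897), 5.13-fold lower, and the lowest crypt library stood above the highest day 1 library. Olfm4, which encodes a secreted glycoprotein of the same cells, was at 529, 304 and 138 in the crypts and 6.51, 9.92 and 9.27 in the day 1 enteroids, a change of -4.90 ± 0.47 (SE, adjusted p = 0.00169). Axin2, the scaffold gene that Wnt signalling induces as its own brake, went from 1356, 2039.7 and 1159.6 to 263, 239.9 and 226, a change of -2.60 ± 0.17 (SE, adjusted p = 0.00065). Crypt and day 1 values of Olfm4 and Axin2 did not overlap either. Tnfrsf19 (-3.00 ± 0.35, adjusted p = 0.00327) and Aqp4 (-2.75 ± 0.29, adjusted p = 0.00228), both expressed at the crypt base, fell too.

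The list did not fall as a block. Of 29 crypt base stem cell genes tested, 4 rose and 14 fell, with a median change of -0.67. Ascl2, the transcription factor that maintains these cells, was at 158, 125 and 90.7 in the crypts and 84.6, 63.1 and 81.4 in the day 1 enteroids, a change of -0.67 ± 0.23 (SE, adjusted p = 0.0643) that did not pass. Lrig1, a brake on EGF receptors (-0.20 ± 0.067, adjusted p = 0.063), did not pass either. Pdgfa, a growth factor gene, went the other way with 1.45 ± 0.094 (SE, adjusted p = 0.000647), and so did Sorbs2 with 1.93 ± 0.26 (SE, adjusted p = 0.00503). Of 20 Wnt target and feedback genes, 2 rose and 7 fell (median -0.26). Prox1 changed by -1.81 ± 0.23 (SE, adjusted p = 0.0041), while Cd44, the hyaluronan receptor gene, rose by 1.01 ± 0.16 (SE, adjusted p = 0.00781). Of 12 Wnt ligand, receptor and co-receptor genes tested, 2 rose and 3 fell, and on the deposited scale 4 and 3. Among genes of reserve stem cells, 12 tested, 2 rose and 4 fell. Hopx (-0.085 ± 0.081, adjusted p = 0.435) and Bmi1 (0.15 ± 0.089, adjusted p = 0.234), the names most often used for that state, did not pass.

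Null and WT differed in the change of these stem cell genes. The difference between the null change and the WT change was tested in 1 fit over 12 libraries, in which 5054 of 12944 genes were called (39%), 2435 with a null change above the WT change (18.8%) and 2619 below (20.2%). In WT, 7128 genes were called between crypt and day 1 in that fit (55.1%). In the crypt base list, 0 members lay above and 25 of 30 below, and the median change was 0.82 in WT against -0.71 in null. On the 12-library scale Lgr5 went from 256, 244 and 308 to 704, 892 and 794 in WT and from 408, 589 and 224 to 72.9, 94.7 and 55.7 in null. Its change was -2.36 against 1.56 in WT, a difference of -3.92 ± 0.23 (SE, adjusted p = 0.000243). For Olfm4 the starting levels differed too, at 34831, 33111 and 26736 in WT crypts and 539, 309.9 and 141 in null crypts. Its change was -4.91 against -0.062 in WT, a difference of -4.84 ± 0.55 (SE, adjusted p = 0.00117). Ascl2 changed by -0.67 against 0.68 in WT, a difference of -1.35 ± 0.32 (SE, adjusted p = 0.0123), and Lrig1 by -0.20 against 1.17 in WT, a difference of -1.38 ± 0.14 (SE, adjusted p = 0.000821). Of the Wnt targets, 0 lay above and 14 of 21 below. Null and WT crypt values of Lgr5 overlapped, those of Olfm4 did not, and changes from unequal starting levels are compared here on the log2 scale.

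**Figure D1:**
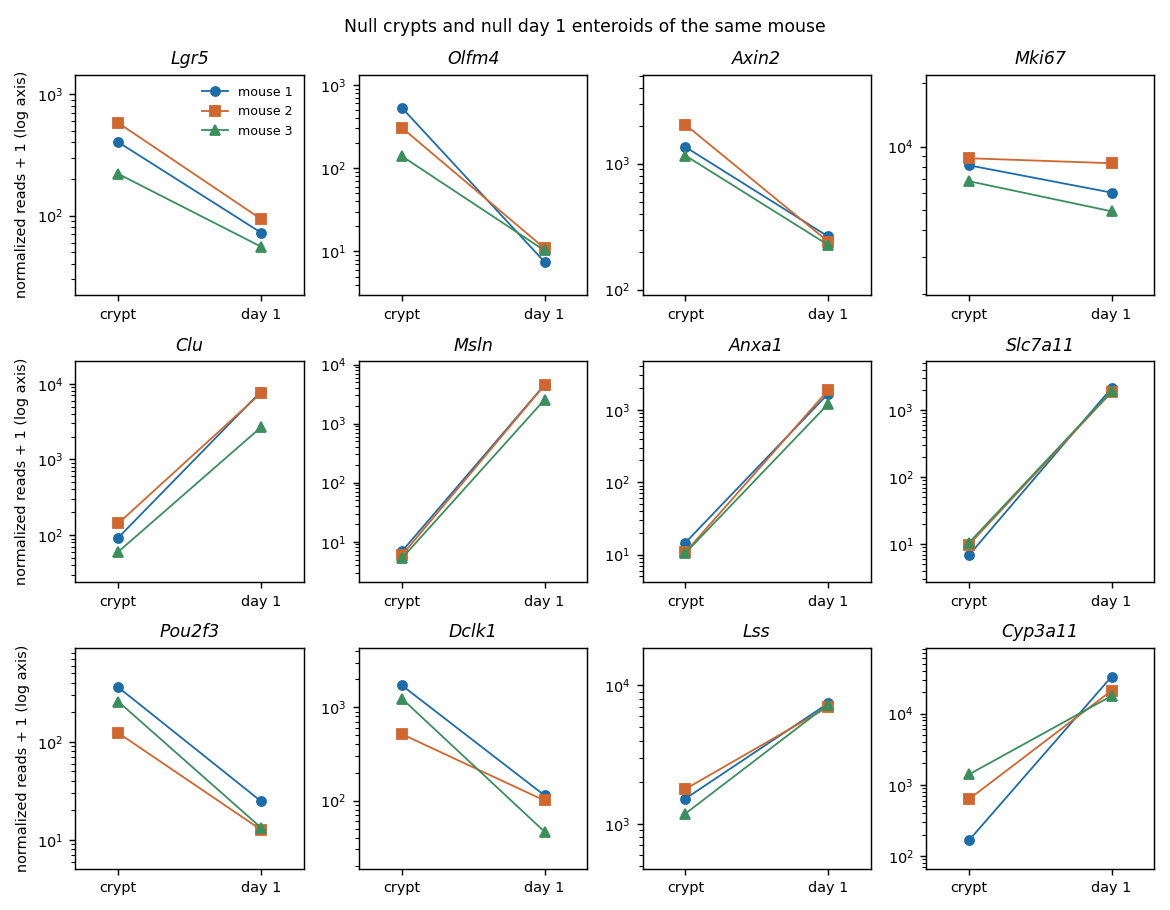
Normalized reads + 1 (log axis, its range set for each gene) of 12 genes in the crypts and day 1 enteroids of null mice 1, 2 and 3, with a line joining the libraries of 1 mouse. Lgr5, Olfm4, Axin2, Pou2f3 and Dclk1 go down in each mouse, Clu, Msln, Anxa1, Slc7a11, Lss and Cyp3a11 go up, and the Mki67 lines are shallow.

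Genes of the regenerative state rose at the same time. Of 24 revival stem cell and YAP target genes tested, 22 rose and 0 fell, with a median change of 3.52. Clu, which encodes the secreted chaperone clusterin and marks revival stem cells, was at 91.4, 142 and 59.1 normalized reads in the crypts and 7891, 7513 and 2653 in the day 1 enteroids. Its change was 5.87 ± 0.19 (SE, adjusted p = 0.000144), 58.3-fold higher, and mouse 3 was lowest at both stages. Anxa1 and Anxa3, membrane-binding annexins, changed by 7.04 ± 0.19 (SE, adjusted p = 0.000128) and 6.48 ± 0.23 (SE, adjusted p = 0.000196). Msln was at 5.84, 4.89 and 4.22 in the crypts and 4523, 4481 and 2533 at day 1. Ly6a, the surface antigen Sca-1, was at 161, 68.4 and 161 in the crypts and 923, 1137 and 852 in the day 1 enteroids, a change of 2.98 ± 0.34 (SE, adjusted p = 0.00288). The members tested but not called were Birc5 and Il33, named here after their values were seen. Against WT, 5 of 24 members changed more upward and 2 more downward, near or below the 18.8% and 20.2% of all genes. The WT median was 3.16. Clu changed by 5.87 against 6.29 in WT, a difference of -0.42 ± 0.67 (SE, adjusted p = 0.646).

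EGF receptor signalling genes rose as well, in 7 of 11 tested members, and 0 fell (median 1.34). The ligand genes Areg (3.91 ± 0.25, adjusted p = 0.000625), Ereg (4.26 ± 0.25, adjusted p = 0.000519) and Btc (2.25 ± 0.17, adjusted p = 0.000899) rose, and the receptor gene Egfr was at 568, 539 and 352 in the crypts and 2166, 1419 and 1817 in the day 1 enteroids, a change of 1.90 ± 0.19 (SE, adjusted p = 0.00185). Erbb2, a receptor of the same family, was called in neither direction (-0.047 ± 0.081, adjusted p = 0.67). Egfr changed by 1.90 against 0.66 in WT, a difference of 1.24 ± 0.22 (SE, adjusted p = 0.00475).

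Genes of cell attachment and matrix remodelling rose in most members. Of 27 integrin, laminin and matrix genes, 19 rose and 2 fell (median 1.25). Plaur, the urokinase receptor gene, went from 3.89, 42 and 24.3 to 1252, 1267 and 948 normalized reads, a change of 6.04 ± 0.61 (SE, adjusted p = 0.00209), and Plat, the tissue plasminogen activator gene, changed by 5.46 ± 0.41 (SE, adjusted p = 0.000905). Col4a2, a basement membrane collagen gene, changed by 4.91 ± 0.80 (SE, adjusted p = 0.00812). Itga5, the fibronectin receptor subunit gene, fell by 1.24 on the log2 scale, from 709, 702 and 480.1 to 309, 245 and 237. Of 10 keratin genes, 7 rose and 0 fell. Krt7, a keratin of simple ductal epithelia, was at 951, 1147 and 611 in the crypts and 15795, 15414 and 10368 in the day 1 enteroids, a change of 3.96 ± 0.089 (SE, adjusted p = 0.000104). Among 25 claudin and junction genes, 13 rose and 1 fell, or 7 and 3 under quantile normalization. The claudin genes Cldn4 (3.77 ± 0.44, adjusted p = 0.00309) and Cldn18 (4.72 ± 0.39, adjusted p = 0.00119) rose most. In the fit without mouse 2, the threshold was no longer passed by Col4a2 (adjusted p = 0.051).

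DNA replication and mitosis genes shifted little in null cultures. Mki67, the Ki-67 gene, was at 8149, 8803 and 6850 normalized reads in the crypts and 6043, 8336 and 4925 in the day 1 enteroids, a change of -0.33 ± 0.097 (SE, adjusted p = 0.0461), and the ranges overlapped. This call was lost on the deposited scale (adjusted p = 0.153), with median-ratio scaling (adjusted p = 0.0532), with no filter on low values (adjusted p = 0.0539), with all 18 libraries in 1 fit (adjusted p = 0.209), without the mouse block (adjusted p = 0.261) and in edgeR (adjusted p = 0.0509). Of 42 DNA replication genes, 3 rose and 6 fell (median -0.18), and of 41 mitosis and kinetochore genes, 1 rose and 9 fell (median -0.21), shares near or below the background of 19.5%. The counts moved with the scaling, to 3 and 3 on the deposited scale for replication genes and to 1 and 4 on the deposited scale or 0 and 12 under quantile normalization for mitosis genes. Pcna, the replication clamp gene, and Rrm2, a ribonucleotide reductase subunit, rose by 0.61 ± 0.086 (SE, adjusted p = 0.00548) and 0.94 ± 0.067 (SE, adjusted p = 0.000832), whereas Tyms, the thymidylate synthase gene, fell by 0.65 ± 0.08 (SE, adjusted p = 0.00355). Among G1 cyclin, kinase and E2F genes, 26 tested, 1 rose and 9 fell, above the background for falls, or 2 and 3 on the deposited scale. Myb, a transcription factor of crypt progenitors, went from 1445, 1615 and 978 to 304, 493 and 265, a change of -1.95 ± 0.13 (SE, adjusted p = 0.000647), and Cdk4 changed by -0.89 ± 0.088 (SE, adjusted p = 0.00189). When mouse 1 was left out, the call was lost for Mki67 (adjusted p = 0.187). Leaving out mouse 3 ended the call of Mki67 (adjusted p = 0.164).

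Single inhibitors of cyclin-dependent kinases were called in each direction. Cdkn1a, which encodes p21, was at 2421, 2492 and 3579 in the crypts and 4897, 3572 and 5466 in the day 1 enteroids, a change of 0.72 ± 0.11 (SE, adjusted p = 0.00712), and Cdkn1c, which encodes p57, was at 112, 44 and 139 in the crypts and 239.6, 101 and 248 in the day 1 enteroids, a change of 1.03 ± 0.16 (SE, adjusted p = 0.00701). Cdkn1b, the p27 gene, fell by 0.43 ± 0.088 (SE, adjusted p = 0.0162). In the list of 7 inhibitors, 2 rose and 1 fell, against a background of 19.5% in each direction. Cdkn1a changed by 0.72 against -0.62 in WT, a difference of 1.34 ± 0.25 (SE, adjusted p = 0.00556), and Cdkn1c by 1.03 against -0.28 in WT, a difference of 1.32 ± 0.23 (SE, adjusted p = 0.00428). With mouse 1 left out, Cdkn1b (adjusted p = 0.104) and Cdkn1c (adjusted p = 0.0521) no longer passed.

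Myc, the transcription factor that drives growth, was at 1242, 2554 and 1204 in the crypts and 1389, 1668 and 1505 in the day 1 enteroids in null libraries, a change of -0.044 ± 0.19 (SE, adjusted p = 0.87). Among 41 ribosome biogenesis genes and Myc relatives, 1 rose and 7 fell (median -0.14), or 1 and 12 under quantile normalization. On the deposited scale 6 were higher and 0 lower, where 3535 of all 12544 genes tested were called higher and 1633 lower. In WT the same list had a median change of 0.99, and 34 of 41 members lay lower in their change in null than in WT and 5 higher. The same held for 37 of 42 DNA replication genes (0 higher, WT median 0.84) and 40 of 41 mitosis genes (0 higher, WT median 0.80). Mki67 changed by -0.33 against 0.61 in WT, a difference of -0.94 ± 0.13 (SE, adjusted p = 0.00212), and Myc by -0.044 against 1.25 in WT, a difference of -1.29 ± 0.33 (SE, adjusted p = 0.017). Without WT mouse 2 the difference for Myc did not pass (adjusted p = 0.0541). The counts of lower differences stand against a background of 20.2%.

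Tuft cell genes fell throughout. Tuft cells are rare chemosensory cells that signal to the immune system through IL-25 and lipid mediators. All 26 tested members fell, against 19.5% of all genes, with a median change of -3.72. Pou2f3, the transcription factor that specifies tuft cells, was at 359, 122 and 256 normalized reads in the crypts and 23.9, 11.7 and 12.4 in the day 1 enteroids, a change of -3.80 ± 0.26 (SE, adjusted p = 0.000733). Dclk1, the microtubule-associated kinase gene used as their marker, was at 1726, 516 and 1245 in the crypts and 113, 99.2 and 45.3 in the day 1 enteroids, a change of -3.68 ± 0.44 (SE, adjusted p = 0.00329). Trpm5, the taste-pathway ion channel gene, was at 1914, 608 and 1384 in the crypts and 172, 106 and 132 in the day 1 enteroids, a change of -3.12 ± 0.21 (SE, adjusted p = 0.00066). Crypt and day 1 values did not overlap for these 3 genes. Siglecf (-4.70 ± 0.44, adjusted p = 0.00165), Sh2d6 (-4.49 ± 0.49, adjusted p = 0.00253) and Bmx (-4.26 ± 0.78, adjusted p = 0.0114) changed most among members. In the fit without mouse 1, the threshold was no longer passed by Bmx (adjusted p = 0.0535).

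The summed level of the tuft list was 26408, 9100.3 and 19036 in the crypts of mice 1, 2 and 3 and 3408, 2840.4 and 2606 at day 1, so the crypts differed more than the enteroids. The median change was -4.01 in mouse 1, -2.93 in mouse 2 and -3.98 in mouse 3, and mouse 2 had the lowest crypt sum. Siglecf is also a gene of eosinophils, and the leukocyte markers given above fell beside it. Their part in its change was not tested. In WT the median was -1.10, and 18 of 27 members changed more downward in null (0 more upward). Pou2f3 changed by -3.80 against -0.60 in WT, a difference of -3.20 ± 0.40 (SE, adjusted p = 0.00152). Among 15 transcription factors of the secretory lineages, 1 rose and 4 fell, and the falls included Gfi1b (-4.21 ± 0.49, adjusted p = 0.00317), which is also a tuft gene. Atoh1, the master regulator of secretory fate, was at 3.89, 17.6 and 16.9 in the crypts and 2.17, 25.3 and 20.6 in the day 1 enteroids, too few reads for a firm statement (adjusted p = 0.939).

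**Figure D2:**
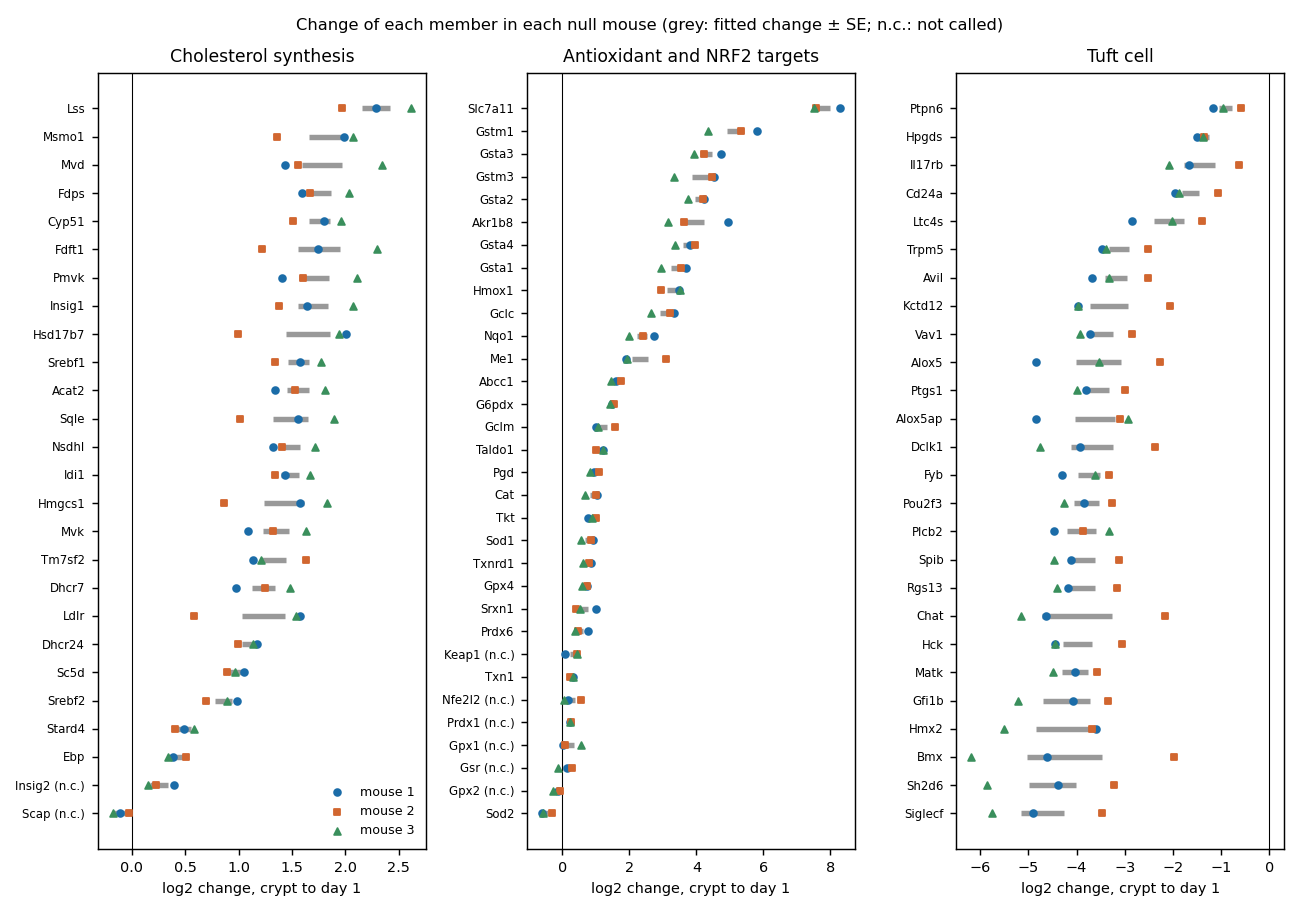
Log2 change from crypt to day 1 of tested members of the cholesterol synthesis (26 of 28), antioxidant and NRF2 target, and tuft cell lists, 1 row per gene, with a coloured symbol for each null mouse and a grey bar for the fitted change ± SE (n.c., not called). The fitted change of each cholesterol member shown but Scap is above 0, and tuft members lie to the left of 0, with mouse 2 nearest to 0 in most rows.

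The other secretory lineages fell in part. Paneth cells secrete alpha-defensins at the crypt base. Of 18 tested defensin genes, 0 rose and 13 fell (median -2.38). The median change was -3.66, -2.83 and -0.43 in mice 1, 2 and 3. Crypt and day 1 values stood apart in 0 of them, against 43.4% of all genes. The calls of Defa3, Defa17, Defa20, Defa26 and Defa43 were lost without the mouse block. Against the WT change the result rested on single mice: 0 of 19 members differed in limma, but 13 lay below it without null mouse 3 and 2 above it without null mouse 2. In limma-voom 4 lay below and in edgeR 2. Their summed level was 1565, 78106 and 1320 normalized reads in the crypts of mice 1, 2 and 3 and 142, 11183 and 895 at day 1, so mouse 2 stood far above the other 2 mice at both stages. The members are near-identical, so reads may be split between them. Among 17 other Paneth cell genes, 2 rose and 8 fell, or 2 and 5 under quantile normalization. The summed level of that list was 13971, 38226 and 11651 in the crypts of mice 1, 2 and 3 and 16457, 15938 and 21774 at day 1. The sum thus fell in mouse 2 and rose in mice 1 and 3. Kit, a receptor kinase gene, was at 446, 109.5 and 276 in the crypts and 31.4, 30.7 and 89.6 in the day 1 enteroids, a change of -2.40 ± 0.45 (SE, adjusted p = 0.0123). Lyz1, the Paneth lysozyme gene, was at 452, 15724 and 442 in the crypts and 246, 1927 and 507 in the day 1 enteroids, and its mean change of -1.24 ± 0.58 (SE, adjusted p = 0.144) did not pass. In the crypts, mouse 2 was highest for Lyz1 and the defensin sum but lowest for Kit. Of 23 goblet cell genes, 3 rose and 8 fell. Clca3b, of the calcium-activated chloride channel regulator family, changed by -3.14 ± 0.076 (SE, adjusted p = 0.000121) and Agr2, a disulfide isomerase needed for mucus, by -1.73 ± 0.16 (SE, adjusted p = 0.00152), while Guca2a, the guanylin gene, rose by 2.98 ± 0.22 (SE, adjusted p = 0.000897). Of 10 enteroendocrine granule genes, 3 rose and 5 fell. Chga, the chromogranin A gene, was at 92.4, 164 and 199 in the crypts and 7.59, 20.7 and 23.7 in the day 1 enteroids, a change of -3.13 ± 0.23 (SE, adjusted p = 0.000897), whereas Cpe, the carboxypeptidase E gene, rose by 1.77 ± 0.24 (SE, adjusted p = 0.00504). Of 5 hormone genes, 0 rose and 1 fell (1 and 0 under quantile normalization), which was the secretin gene Sct (-0.80 ± 0.21, adjusted p = 0.0309). When mouse 1 was left out, the call was lost for Sct (adjusted p = 0.168). Leaving out mouse 2 ended the call of Sct (adjusted p = 0.0693). With mouse 3 left out, Sct (adjusted p = 0.0743) no longer passed.

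Cholesterol synthesis rose nearly as a whole. Of 28 tested genes, 26 rose and 0 fell, with a median change of 1.48. Lss, the lanosterol synthase gene, was at 1522, 1786 and 1187 normalized reads in the crypts and 7425, 6994 and 7284 in the day 1 enteroids, a change of 2.29 ± 0.13 (SE, adjusted p = 0.000508). Msmo1, a sterol demethylation enzyme, changed by 1.81 ± 0.15 (SE, adjusted p = 0.00117) and Mvd, of the mevalonate branch, by 1.78 ± 0.19 (SE, adjusted p = 0.00226). Crypt and day 1 values did not overlap for Lss, Msmo1 or Mvd. Only Scap and Insig2 of this list were uncalled, both regulators of the SREBP transcription factors, named after their values were seen. The WT median was 1.14. Against WT, 3 members changed more upward and 1 more downward in null, below the 18.8% and 20.2% of all genes.

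The members moved together, so their promoters are shown: the 250 bases before the start of 2 cholesterol genes with large rises that the RefSeq table holds (GRCm38.p6), 5′ to 3′ along the gene. Capitals mark matches, on either strand, to 8 motifs, of which CCAAT (read as ATTGG on the other strand) is the box bound by NF-Y. The others searched were TTTGAA for TCF factors, TGANTCA for AP-1, TGACNNNGC for NRF2, TCACNCCAC for SREBP, ATGACGTGG for ATF6, CAGCTG as an E-box and the CArG box of serum response factor. Matches of the AP-1 and NRF2 motifs can overlap.
Lss, chr10:76531355-76531604 (plus strand): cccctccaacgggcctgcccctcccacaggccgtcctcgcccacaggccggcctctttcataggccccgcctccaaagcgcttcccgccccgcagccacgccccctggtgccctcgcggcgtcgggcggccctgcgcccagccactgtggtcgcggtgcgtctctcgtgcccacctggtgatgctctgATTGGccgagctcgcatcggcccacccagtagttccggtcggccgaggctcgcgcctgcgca
Msmo1, chr8:64733579-64733828 (minus strand): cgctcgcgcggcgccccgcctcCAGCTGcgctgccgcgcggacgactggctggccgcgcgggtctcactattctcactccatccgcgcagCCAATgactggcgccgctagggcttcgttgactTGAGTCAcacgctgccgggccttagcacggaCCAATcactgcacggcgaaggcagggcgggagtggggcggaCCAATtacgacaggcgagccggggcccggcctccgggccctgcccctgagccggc
The only match for Lss was CCAAT at -62 to -58 from the start. Msmo1 held CCAAT at -160 to -156, -96 to -92 and -55 to -51, with 1 match of the AP-1 motif at -127 to -121 and 1 of the E-box at -228 to -223. Of the 26 rising members, 18 had a promoter in the table, and 16 of these (88.9%) held CCAAT, against 33.8% of all 32851 promoters. Members were counted with 1 start per gene. The share over all promoters counts every start of 27025 symbols and is not limited to genes tested here, so the 2 shares are not strictly alike. TCACNCCAC, the sterol regulatory element letters searched, was in 1 of 18 (5.56%) against 1.05%. A match is a description of the letters in the window and not a binding site.

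Fatty acid synthesis genes rose with them. In that list 16 genes were tested and 12 rose and 1 fell (median 0.78). Scd1, a stearoyl-CoA desaturase gene, went from 53.5, 18.6 and 44.3 to 7374, 2403 and 5142 normalized reads, a change of 6.95 ± 0.11 (SE, adjusted p = 4.91e-05), and its paralog Scd2 from 3667, 2876 and 1508 to 46786, 47576 and 42444, a change of 4.18 ± 0.21 (SE, adjusted p = 0.000418). Srebf1, the transcription factor of this pathway, changed by 1.56 ± 0.096 (SE, adjusted p = 0.000604). The exception was Acacb, which encodes the mitochondrial acetyl-CoA carboxylase and fell by 1.22 ± 0.25 (SE, adjusted p = 0.0166). In the fit without mouse 2, the threshold was no longer passed by Acacb (adjusted p = 0.0622).

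Antioxidant genes, many of them targets of the stress-sensing factor NRF2, rose in 25 of 32 tested members and fell in 1, with a median change of 1.05. Slc7a11, the cystine importer that feeds glutathione synthesis, was at 5.84, 8.8 and 9.5 normalized reads in the crypts and 2139, 1864 and 1916 in the day 1 enteroids, a change of 7.79 ± 0.21 (SE, adjusted p = 0.000128). The glutathione transferase genes Gstm1 (5.16 ± 0.27, adjusted p = 0.000421), Gsta3 (4.29 ± 0.17, adjusted p = 0.000247) and Gstm3 (4.12 ± 0.24, adjusted p = 0.000552) followed. Members of this gene family are alike in sequence, so reads may be shared. Hmox1, the heme oxygenase gene, was at 45.7, 33.2 and 34.8 in the crypts and 524, 262 and 405 in the day 1 enteroids, a change of 3.31 ± 0.19 (SE, adjusted p = 0.000508), with no overlap, and Nqo1, the quinone reductase gene, changed by 2.37 ± 0.15 (SE, adjusted p = 0.000625). Sod2, the mitochondrial superoxide dismutase gene, fell by 0.50 ± 0.082 (SE, adjusted p = 0.00855). Nfe2l2, which encodes NRF2 itself, was not among the members called and is named after its value was seen. In WT the median was 0.86, and 12 of 33 members changed more upward and 1 more downward than in WT, or 7 and 3 under quantile normalization. The shares of all genes in the main fit were 18.8% and 20.2%. When mouse 1 was left out, the call was lost for Sod2 (adjusted p = 0.0519).

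The promoters of the 3 largest rises are shown in the same way. In this list the motif TGACNNNGC is of interest, since it is the core of the antioxidant response element.
Slc7a11, chr3:50443614-50443863 (minus strand): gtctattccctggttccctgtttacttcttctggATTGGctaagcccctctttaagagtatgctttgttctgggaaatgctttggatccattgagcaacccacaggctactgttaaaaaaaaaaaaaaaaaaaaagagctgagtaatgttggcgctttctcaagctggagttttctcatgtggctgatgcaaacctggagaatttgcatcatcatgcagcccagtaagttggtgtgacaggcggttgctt
Gstm1, chr3:108017974-108018223 (minus strand): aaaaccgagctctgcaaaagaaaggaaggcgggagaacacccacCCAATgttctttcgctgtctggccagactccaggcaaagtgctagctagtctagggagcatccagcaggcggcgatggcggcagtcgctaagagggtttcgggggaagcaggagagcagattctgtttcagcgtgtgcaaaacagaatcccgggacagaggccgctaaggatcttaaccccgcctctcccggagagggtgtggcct
Gsta3, chr1:21240335-21240584 (plus strand): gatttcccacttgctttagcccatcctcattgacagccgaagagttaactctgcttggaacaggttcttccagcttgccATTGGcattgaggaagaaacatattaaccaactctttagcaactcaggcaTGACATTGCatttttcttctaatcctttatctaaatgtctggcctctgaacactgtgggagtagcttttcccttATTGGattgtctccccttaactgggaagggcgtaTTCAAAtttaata
Gsta3 held TGACNNNGC at -121 to -113, with CCAAT at -171 to -167 and -47 to -43 and TTTGAA (read as TTCAAA on the other strand) at -13 to -8. For Slc7a11 and Gstm1 a single CCAAT was found, at -216 to -212 and -206 to -202. The table lists 2 starts for Gstm1, and the first is printed. Of 26 called members 21 had a promoter in the table, 4 of them with TGACNNNGC (19%, against 10.2% of all promoters) and 11 with CCAAT (52.4%, against 33.8%), counted as for the cholesterol genes.

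Xenobiotic metabolism genes rose in 23 of 33 tested members and fell in 1 (median 1.61). Cyp3a11, a drug-metabolizing cytochrome P450, was at 165, 628 and 1400.2 normalized reads in the crypts and 32990.3, 21011 and 17733 in the day 1 enteroids, a change of 5.45 ± 0.71 (SE, adjusted p = 0.00424). The crypts of mouse 1 were lowest and its enteroids highest. Cyp2b10, a target of the receptor CAR, changed by 6.46 ± 0.46 (SE, adjusted p = 0.00081) and Cyp2c66 by 5.11 ± 0.35 (SE, adjusted p = 0.000732). Cyp1a1, a target of the aryl hydrocarbon receptor, was at 0.973, 178 and 202 in the crypts and 2053, 450.1 and 1051 in the day 1 enteroids, and its change of 4.58 ± 1.66 (SE, adjusted p = 0.0791) did not pass. The P450 genes of each subfamily are alike in sequence, so reads may be shared. In WT this list had a median change of 0.20, and 27 of 34 members changed more upward and 1 more downward than in WT. Cyp3a11 changed by 5.45 against 0.27 in WT, a difference of 5.18 ± 0.85 (SE, adjusted p = 0.00338). On the 12-library scale it was at 3408, 3892 and 4305 in WT crypts and 5174, 3489 and 5515 in WT enteroids. Among 10 metallothionein and zinc genes, 5 rose and 1 fell. The metal-binding Mt1 and Mt2 changed by 3.12 ± 0.12 (SE, adjusted p = 0.000221) and 4.01 ± 0.27 (SE, adjusted p = 0.000658).

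Genes of absorptive enterocytes moved in both directions in null cultures, and those for sugar and fat rose more often than they fell. Of 20 sugar digestion and transport genes, 9 rose and 4 fell (median 0.54). Sis, the sucrase-isomaltase gene, was at 4505, 15556 and 11753 normalized reads in the crypts and 8823, 32960.5 and 19168 in the day 1 enteroids, a change of 0.92 ± 0.093 (SE, adjusted p = 0.00206). G6pc, the glucose 6-phosphatase gene, changed by 2.85 ± 0.24 (SE, adjusted p = 0.00116). Lct, the lactase gene, fell from 13769, 8269 and 18638 to 4935, 2497 and 5204, a change of -1.68 ± 0.089 (SE, adjusted p = 0.000435). Of 25 fat absorption genes, 12 rose and 2 fell (median 0.38). Apob, the core protein of chylomicrons, was at 73869, 49100.5 and 68287 in the crypts and 189556, 106306 and 164836 in the day 1 enteroids, a change of 1.25 ± 0.10 (SE, adjusted p = 0.00121).

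Of 16 brush border peptidase genes, 2 rose and 4 fell, or 4 and 4 on the deposited scale and 1 and 7 under quantile normalization. Anpep, the aminopeptidase N gene, changed by -0.85 ± 0.095 (SE, adjusted p = 0.00278). Among 26 microvillus structural genes, 9 rose and 4 fell, which turned into 4 higher and 8 lower under quantile normalization. Vil1, the villin gene, was at 50798, 47206 and 63327 in the crypts and 47609, 38241 and 56467 in the day 1 enteroids, a change of -0.19 ± 0.089 (SE, adjusted p = 0.148) that did not pass. Of 21 amino acid and peptide transport genes, 6 rose and 8 fell (7 and 6 on the deposited scale), and of 25 iron, bile acid and vitamin handling genes, 11 rose and 4 fell. Cybrd1, the duodenal iron reductase gene, went from 39.9, 28.4 and 66.5 to 2043, 949.8 and 1492, a change of 5.04 ± 0.23 (SE, adjusted p = 0.000352), and Slc40a1, the iron exporter gene, from 9929.7, 5169 and 5987 to 4334, 2135 and 2548, a change of -1.23 ± 0.062 (SE, adjusted p = 0.00041).

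The sugar, fat absorption, peptidase and microvillus lists differed from WT in one direction, and the amino acid and peptide transport list in both. The WT median change was -1.57 for sugar genes, -0.90 for fat absorption, -1.67 for peptidases and -0.90 for microvillus genes. The null change lay above the WT change in 18 of 20, 21 of 25, 14 of 16 and 18 of 26 members, against 18.8% of all genes, and in 0 of them below. Among iron, bile acid and vitamin handling genes it lay above in 16 of 24 and below in 0. Among amino acid and peptide transport genes it lay above in 13 of 21 and below in 5, with a WT median of -0.72. Sis changed by 0.92 against -0.97 in WT, a difference of 1.89 ± 0.21 (SE, adjusted p = 0.00115). Lct changed by -1.68 against -4.50 in WT, a difference of 2.81 ± 0.46 (SE, adjusted p = 0.0034). Vil1 changed by -0.19 against -1.25 in WT, a difference of 1.06 ± 0.20 (SE, adjusted p = 0.00507).

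Energy genes split between glycolysis and respiration. Of 33 hypoxia and glycolysis genes, 19 rose and 4 fell (median 0.61), or 14 and 7 under quantile normalization. Slc2a1, the glucose transporter GLUT1 gene, was at 969.8, 1002 and 867 in the crypts and 2859, 2300.1 and 2327 in the day 1 enteroids, a change of 1.39 ± 0.092 (SE, adjusted p = 0.00066). Ndrg1, a stress-responsive gene, changed by 2.89 ± 0.17 (SE, adjusted p = 0.000519) and Hk1, a hexokinase gene, by 2.08 ± 0.30 (SE, adjusted p = 0.00556), whereas another hexokinase gene, Hk2, fell by 1.76 ± 0.38 (SE, adjusted p = 0.0183). Nuclear genes of oxidative phosphorylation fell by small amounts in 57 of 69 members and rose in 0, with a median change of -0.31 and a range from -0.62 to 0.12. On the deposited scale 30 fell and 1 rose. Cox6c, a subunit of cytochrome c oxidase, was at 6530.0, 5704 and 6601 in the crypts and 4374, 3774 and 4469 in the day 1 enteroids, a change of -0.58 ± 0.061 (SE, adjusted p = 0.00228). The WT median was -0.53. Among 13 genes of the mitochondrial genome, 1 rose and 4 fell. Of 27 ketogenesis and fatty acid oxidation genes, 9 rose and 3 fell, or 8 and 5 under quantile normalization. Angptl4, a lipoprotein lipase inhibitor, changed by 3.34 ± 0.42 (SE, adjusted p = 0.00374).

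Genes that the epithelium expresses in contact with microbes fell more often than they rose. Of 26 microbe-responsive genes, 7 rose and 13 fell (median -0.84), or 4 and 11 under quantile normalization. Reg3b and Reg3g, secreted antimicrobial lectins, were the most abundant of those that fell. Reg3b was at 131168, 322502 and 243166 normalized reads in the crypts and 3547, 27482 and 9538 in the day 1 enteroids, a change of -4.48 ± 0.31 (SE, adjusted p = 0.000724). Reg3g changed by -4.68 ± 0.20 (SE, adjusted p = 0.000293), and Fut2, the fucosyltransferase gene, by -4.59 ± 0.44 (SE, adjusted p = 0.00171). Sprr1a, a cornified envelope gene, rose by 6.45 ± 0.52 (SE, adjusted p = 0.00109). Of 23 MHC and antigen presentation genes, 4 rose and 14 fell (median -0.77), or 2 and 15 under quantile normalization. The class II gene H2-Aa was at 524, 1042 and 1013 in the crypts and 30.4, 64 and 197 in the day 1 enteroids, a change of -3.48 ± 0.36 (SE, adjusted p = 0.00216), and Ciita, the master regulator of class II, changed by -3.32 ± 0.48 (SE, adjusted p = 0.00583). The class I-like genes H2-Q1 (0.39 ± 0.062, adjusted p = 0.00741) and H2-Q2 (0.46 ± 0.068, adjusted p = 0.00611) rose. Class II genes are expressed by leukocytes as well as epithelium, and the T, B and myeloid markers fell beside them with the sums given above. Their part in these falls was not tested. Leaving out mouse 1 ended the call of H2-Q1 (adjusted p = 0.0519).

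Interferon response genes were mostly uncalled. Of 36 tested, 4 rose and 5 fell (median 0.12), or 7 and 4 on the deposited scale, all below the background. Ifit1, an antiviral RNA-binding protein gene, was at 1916, 1109 and 1067 in the crypts and 2288, 750.5 and 4097 in the day 1 enteroids, a change of 0.54 ± 0.45 (SE, adjusted p = 0.376). In WT the list had a median change of -1.55, and 29 of 36 members changed more upward and 2 more downward than in WT. Ifit1 changed by 0.54 against -2.36 in WT, a difference of 2.90 ± 0.58 (SE, adjusted p = 0.00665). Of 17 necroptosis and gasdermin genes, 2 rose and 9 fell. Gsdmc4, a pore-forming gasdermin gene, was at 31555, 2196 and 6930.2 in the crypts and 2730.2, 756 and 934 in the day 1 enteroids, a change of -2.65 ± 0.36 (SE, adjusted p = 0.00489). The gasdermin C genes are tandem copies, so reads may be shared. Mlkl, the effector of necroptosis, rose by 0.67 ± 0.16 (SE, adjusted p = 0.0232). With mouse 1 left out, Mlkl (adjusted p = 0.0603) no longer passed.

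Stress and signalling lists are counted here against the background of 19.5% of all genes in each direction. The p53 target and immediate early lists lay above it for rises and the BMP list for falls. Counts of the apoptosis, unfolded protein response and Notch lists were near or below it. Of 34 p53 target genes, 17 rose and 3 fell (median 0.50). Ephx1, an epoxide hydrolase gene, was at 229.6, 362 and 493 in the crypts and 11064, 8389 and 9634 in the day 1 enteroids, a change of 4.80 ± 0.25 (SE, adjusted p = 0.000433), and the apoptosis mediators Phlda3 and Bbc3 changed by 3.74 ± 0.34 (SE, adjusted p = 0.00158) and 1.47 ± 0.23 (SE, adjusted p = 0.00716). Of 36 apoptosis genes, 9 rose and 4 fell, with a median change of -0.024 that was 0.11 on the deposited scale. Immediate early genes rose in 13 of 27 and fell in 3. Fosl1 changed by 4.70 ± 0.69 (SE, adjusted p = 0.00619) and Fos by -1.67 ± 0.15 (SE, adjusted p = 0.00139), both subunits of AP-1. Of 30 unfolded protein response genes, 7 rose and 1 fell, and Hspa5, the ER chaperone BiP, did not pass (0.071 ± 0.13, adjusted p = 0.697). Of 19 BMP pathway genes, 4 rose and 8 fell, or 6 and 8 on the deposited scale. Id1 and Smad6, both direct targets of BMP signalling, changed by -2.30 ± 0.11 (SE, adjusted p = 0.000388) and -2.47 ± 0.22 (SE, adjusted p = 0.00138). The medium held the BMP antagonist Noggin, and its part in these 2 falls was not tested. Bmp8b, a ligand gene, rose by 5.77 ± 0.26 (SE, adjusted p = 0.000327). Of 19 Notch pathway genes, 2 rose and 5 fell, but 4 higher and 3 lower on the deposited scale. Dll4, a Notch ligand gene, was at 115, 164 and 189.9 in the crypts and 20.6, 43.3 and 17.5 in the day 1 enteroids, a change of -2.56 ± 0.32 (SE, adjusted p = 0.00391).

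**Figure D3:**
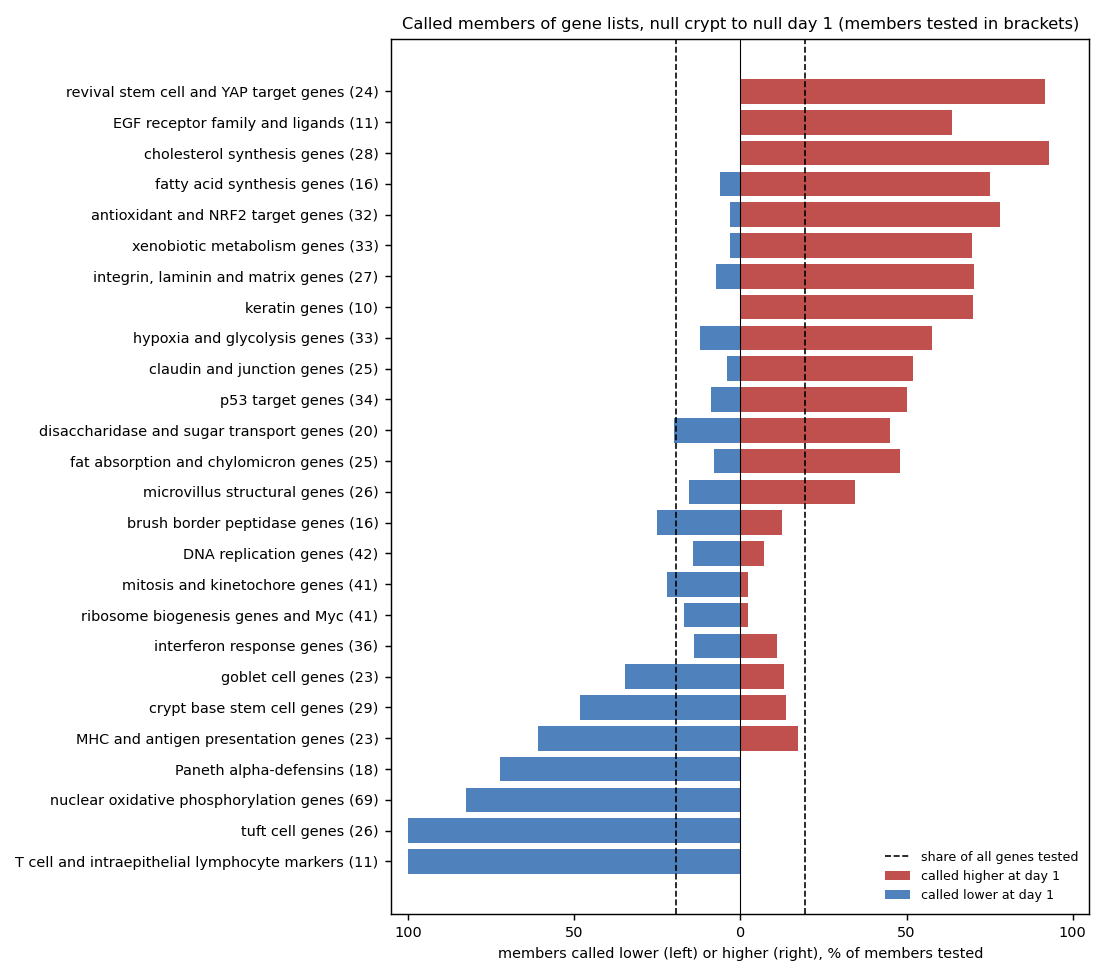
Percent of the tested members of 26 gene lists that rose (red, to the right) or fell (blue, to the left) from null crypts to null day 1 enteroids, with the number tested in brackets and dashed lines at the 19.5% of all genes called in each direction. Revival, cholesterol and NRF2 lists reach furthest right, and tuft cell and T cell lists lie at 100% on the left.

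Single genes that departed furthest from WT were mostly outside these lists. Their levels are given on the 12-library scale. Samd5 went from 11.9, 39.9 and 9.68 to 1277, 1198 and 1313 in null libraries and from 29.3, 49.4 and 87.5 to 67.5, 74.2 and 108 in WT. Its change was 6.15 against 0.69 in WT, a difference of 5.46 ± 0.54 (SE, adjusted p = 0.000807). Prl2c3 was at 26998, 22361 and 43086 in null enteroids and at 129.6, 17.3 and 134 in WT enteroids, with no read in the 3 WT crypt libraries. Its change was 10.94 against 6.10 in WT, a difference of 4.84 ± 0.99 (SE, adjusted p = 0.00724), and for Prl2c5 the values were 9.11 against 1.44 in WT, a difference of 7.67 ± 0.92 (SE, adjusted p = 0.00138). Enpp3, an ectonucleotidase gene, was not called in null, at 4286, 1072 and 4376 in the crypts and 5316, 1999 and 3961 at day 1, while WT went from 3811, 3168 and 1309 to 101, 70.1 and 78.2. Its change was 0.35 against -4.92 in WT, a difference of 5.27 ± 0.39 (SE, adjusted p = 0.000415). Col18a1, a basement membrane collagen gene, changed by 2.19 against -2.63 in WT, a difference of 4.82 ± 0.40 (SE, adjusted p = 0.000506). Pnliprp2, a pancreatic lipase-related gene, changed by 3.75 against -1.04 in WT, a difference of 4.79 ± 0.65 (SE, adjusted p = 0.00181). Csf1r, the macrophage growth factor receptor gene, was low and uneven, at 9.1, 30.5 and 639 in WT crypts, and its values were 1.02 against -5.11 in WT, a difference of 6.13 ± 1.70 (SE, adjusted p = 0.0242). That call was lost without null mouse 1 (adjusted p = 0.064) and without WT mouse 2 (adjusted p = 0.0585). With no read in WT crypts, the sizes for Prl2c3 depend on the pseudocount and the tool, and its difference was 1.66 with a pseudocount of 0.1, 1.16 in edgeR and 2.65 in DESeq2. For Prl2c3 and Prl2c5 the difference did not pass in edgeR's quasi-likelihood test (adjusted p = 0.871 and 0.925), and for Prl2c3 not in DESeq2 (adjusted p = 0.262) or with a pseudocount of 0.1 (adjusted p = 0.247).

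Nox1, an epithelial NADPH oxidase gene, fell in null from 538, 536 and 175 to 16.6, 34.9 and 22.1 and went from 375, 440.2 and 9.59 to 1303, 637 and 45.6 in WT, where mouse 3 was low at both stages. Its change was -3.93 against 1.49 in WT, a difference of -5.41 ± 0.58 (SE, adjusted p = 0.00105). Cd177, a surface glycoprotein gene, was at 430.3, 738 and 451 in null crypts, and its change was -4.51 against 0.30 in WT, a difference of -4.81 ± 0.36 (SE, adjusted p = 0.000415). Prelp, which encodes a matrix proteoglycan, changed by -4.59 against -0.11 in WT, a difference of -4.49 ± 0.46 (SE, adjusted p = 0.000954). Ptpro, a receptor phosphatase gene, changed by -2.25 against 1.57 in WT, a difference of -3.81 ± 0.55 (SE, adjusted p = 0.00223), and Slc16a12, a transporter gene of the monocarboxylate family, by -1.61 against 2.12 in WT, a difference of -3.72 ± 0.40 (SE, adjusted p = 0.00108). Pla2g4c started from 19281, 304 and 2262 in null crypts and 95, 50.4 and 119 in WT crypts, and its change was -5.62 against -0.62 in WT, a difference of -4.996 ± 1.16 (SE, adjusted p = 0.012). Beside the larger fall in null stood a higher crypt level there.

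**Figure D4:**
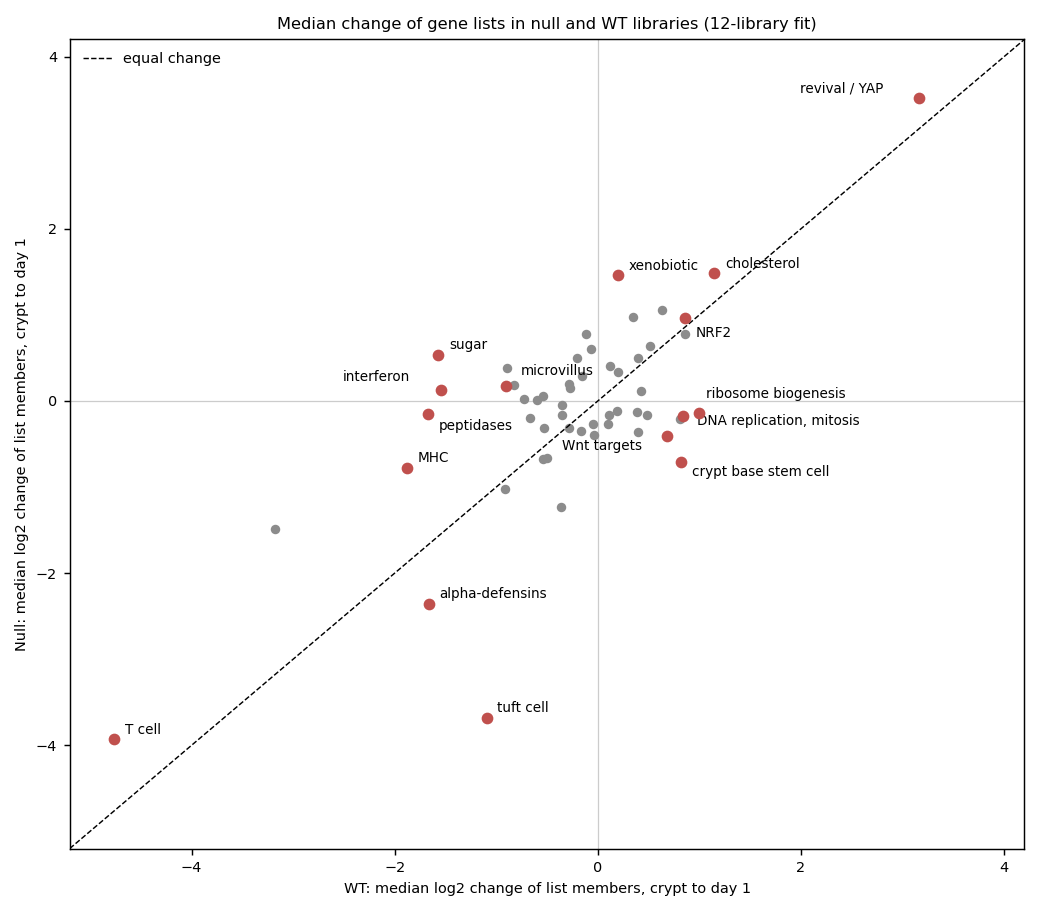
Median log2 change from crypt to day 1 over the members of each gene list, in WT (horizontal) and null (vertical) libraries from the 12-library fit, 1 point per list, with a dashed line where both are equal. Stem cell, Wnt target, replication, mitosis and ribosome biogenesis lists lie right of 0 and below 0, sugar and interferon lists lie left of 0 and above 0, and revival, cholesterol and NRF2 lists are positive on both axes.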

How the data were processed

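Poly(A) RNA of the 18 libraries was sequenced by the authors as stranded single reads of 50 bases, trimmed with fastp 0.20.0, quantified with Salmon 1.3.0 against GENCODE (mouse, GRCm38) and normalized with DESeq2 1.26.0. The deposited signal values are counts divided by 1 size factor per library, in a separate table for each day, with genes at no more than 1 count across its samples left out. The authors also deposited log2 fold changes with standard errors, a Wald score and p-values of their own comparison of genotypes, and their mean, none of which was used. Each column was divided by its smallest value above 0, which gave whole reads (within 0.001) for 100% of values. The 16414 genes in all 3 tables (17759 for crypts and 17423 for day 1) were joined on gene ID and scaled together by TMM (edgeR 4.0.16, factors 0.9213 to 1.096). The 12 libraries with WT were scaled alike. Totals of 25010335 to 28619017 reads per null library cover counting error only.

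Changes were tested with limma 3.58.1 (R 4.3.3, eBayes with trend, two-sided) on log2(normalized reads + 1) for genes with a mean of at least 10, with the mouse as a fixed block and Benjamini-Hochberg adjustment over all genes tested. The null change minus the WT change was the interaction term of a fit of 12 libraries with 6 mice as blocks. Every adjusted p in the text comes from these limma fits unless another tool is named. The mouse numbers come from the labels and name the same animal at both stages, and deviations from the group means correlated at 0.405, 0.528 and 0.459 within mice and at -0.369 to -0.116 between mice. The deviations of a gene cancel out within a stage, which pulls the values between mice to the negative side, so these are no separate check. Tests were run on simulated reads first. Alternatives were edgeR, DESeq2 1.42.0, limma-voom and other scalings, filters and pseudocounts. Replicates are separate mice.

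Members and lists were chosen with earlier results of these data known, and no set test was run. Genes were named by a rule: up to 4 called members per list with the largest change in the direction of most calls, up to 2 against it and the first 2 listed, the 10 largest rises and 10 largest falls with a mean of at least 50 whose groups did not overlap, genes the study names, and the 8 genes furthest above and below the WT change. Exceptions are named as such, and some genes under the rule are not reported here. Symbols were matched also through older symbols, and 4 that now stand for another gene were not matched. Promoter sequences are from RefSeq (GRCm38.p6).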

Additional observations from a re-analysis of the deposited data

Results flagged for a closer look

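The results below stood out because the change from crypt to day 1 differed between null and WT mice by a test of the difference itself, the interaction term in limma. In all, 5054 of 12944 genes did so (39%). The null change lay above the WT change, in log2 units, for Prl2c5 (7.67), Csf1r (6.13), Samd5 (5.46), Enpp3 (5.27), Cyp3a11 (5.18), Prl2c3 (4.84), Col18a1 (4.82) and Pnliprp2 (4.79). It lay below for Nox1 (-5.41), Pla2g4c (-4.996), Olfm4 (-4.84), Cd177 (-4.81), Prelp (-4.49), Lgr5 (-3.92), Ptpro (-3.81) and Slc16a12 (-3.72). These 16 genes were taken for the size of the difference, so the sizes are a description.

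Among genes that the study itself names, the difference was negative for the stem cell regulators Lrig1 (-1.38), Ascl2 (-1.35) and Hopx (-0.97), for Myc (-1.29) and for the proliferation marker Mki67 (-0.94). It was positive for the enterocyte gene Vil1 (1.06) and the cell cycle inhibitors Cdkn1c (1.32) and Cdkn1a (1.34). Csf1r rests on few reads in most libraries, Prl2c3 and Prl2c5 share near-identical copies, and the size for Prl2c3 depends on the pseudocount. No cause of any of these differences was tested.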

How the results depend on the processing

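Of the 4893 calls, 3127 remained without the mouse block, with 3135 genes called in all (1464 lower), and none changed sign. Leaving out 1 mouse gave 2231 to 3628 calls, with 1243 to 2115 higher and 988 to 1613 lower, and mouse 1 moved the count most. The lowest values (2231, 1243 and 988) were those without mouse 1, and fits with 1 mouse less have fewer degrees of freedom. The cause of the loss without the block was not tested. The other alternatives gave 3504 to 5168 calls, within 1.5 times of 4893. Among calls of the main test, 5 changed sign under quantile normalization. The count of 5054 genes that differed from WT moved to between 3684 and 5121, within 1.5 times under each alternative, and was 4286 without the replicate block.

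Medians near 0 changed sign, and the cause was not tested. On the deposited scale these were the Notch (0.036), apoptosis (0.11), MTG family (0.026), BMP (0.02), ribosome biogenesis (0.00041) and heat shock (0.0059) lists. Under quantile normalization they were the microvillus (-0.093), ketogenesis (-0.12), epithelial marker (-0.070), amino acid and peptide transport (-0.12) and ion transport (-0.092) lists, and with median-ratio scaling the apoptosis list (0.0037). With a mean of at least 50 the stromal markers had 0.31. Leaving out 1 mouse moved the apoptosis median between -0.066 and 0.090 and the ion transport median between -0.20 and 0.13. Of the named genes, none changed sign, and 84 lost their call without the block, 84, 76 and 41 without mouse 1, 2 or 3, 25 on the deposited scale and 5 in edgeR. Without the block the differences from WT of Cdkn1c (adjusted p = 0.123) and Nox1 (adjusted p = 0.0555) did not pass in limma. The calls of Eno1b, Hk2, Mki67, Mlkl and Sgk1 were lost in limma without the trend (adjusted p = 0.0612 for Hk2). With 3 mice, small changes and genes of few reads had limited precision.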

Other observations

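Several lists not described above are counted here against the background of 19.5% of all genes in each direction. Of 17 circadian clock genes, 8 rose and 2 fell. The repressors Cry1 and Cry2 changed by 1.23 ± 0.10 (SE, adjusted p = 0.00121) and 1.48 ± 0.14 (SE, adjusted p = 0.00158), and Nr1d1, the REV-ERB alpha gene, fell by 1.20 ± 0.16 (SE, adjusted p = 0.00437). Of 11 glucocorticoid-responsive genes, 4 rose and 2 fell. Sgk1, a kinase that regulates sodium transport, was at 168, 52.8 and 785 normalized reads in the crypts and 1044, 327 and 1223 in the day 1 enteroids, a change of 1.96 ± 0.41 (SE, adjusted p = 0.0174). Of 26 ion transport genes, 7 rose and 6 fell, near that background, but 4 rose and 6 fell under quantile normalization. Ano1, a calcium-activated chloride channel gene, rose by 4.39 ± 0.19 (SE, adjusted p = 0.000293) and Aqp8, a water channel gene, by 3.74 ± 0.48 (SE, adjusted p = 0.00415). Of 26 gut identity transcription factors, 5 rose and 9 fell, or 6 and 5 on the deposited scale. Isx, which controls vitamin A uptake, rose by 1.34 ± 0.20 (SE, adjusted p = 0.00611), and Tbx3 fell by 1.80 ± 0.092 (SE, adjusted p = 0.000421). Of 18 heat shock and chaperone genes, 3 rose and 3 fell, below that background in each direction, or 3 and 1 on the deposited scale. Of 2 pancreas and Brunner gland markers tested, 1 rose and 0 fell. This was Ctrb1, a chymotrypsinogen gene, which was at 0, 0 and 3.17 normalized reads in the crypts and 30.4, 37.9 and 52.5 in the day 1 enteroids. Without mouse 1, the call of Sgk1 (adjusted p = 0.0748) was lost. Without mouse 2, the call of Sgk1 (adjusted p = 0.0795) was lost.

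Genes listed in the table of only 1 stage are given as reads. The day 1 table held 25 genes with a mean of at least 10 recovered reads in null libraries that were not in the crypt table. Among them were the matrix and YAP target gene Ccn2 with 198 to 448 reads per null day 1 library, the prolactin-family gene Prl2a1 with 222 to 873, the protease gene Klk6 with 196 to 274 and the Wnt ligand gene Wnt7a with 61 to 72. They were chosen after their values were seen. In the other direction there were 9 genes, including Saa1, an acute phase gene, with 6 to 222 reads per null crypt library and Gnat3, the taste-pathway G protein gene of tuft cells, with 3 to 16. No test was run on these genes, and their reads at the other stage were not analysed here. By the filter described above, genes at no more than 1 count across the samples of a stage were left out of its values.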
